A study of Rattus norvegicus with 2 samples.

Results

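The numbered Zfp genes of the rat are those whose symbol is Zfp followed by exactly 3 digits, a naming style for zinc finger proteins that says nothing of function or level. The rule found 167 genes among the 23282 listed, each with its own row and Entrez identifier, on 20 autosomes and the X chromosome. Expression was measured by RNA sequencing in rat (Rattus norvegicus) embryonic stem cells of the line RRRC#464 DA-EC8/Rrrc. Both libraries are wild type, of the Dark Agouti strain, at passage 30, labelled with a normal karyotype and grown untreated in 2i medium, which holds inhibitors of MEK and of GSK3. They form 1 group of 2 replicates of 1 cell line, so no contrast between conditions exists and no test was made. The design calls them biological replicates, but nothing says that they came from separate cultures, so an SD here may measure technical spread.

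C2H2 zinc fingers are small folds, each held by a zinc ion, that read short stretches of DNA, and a protein with many of them can bind a long and specific site. In mammals the largest branch of this family joins the fingers to a KRAB box, which recruits the co-repressor Trim28 and through it the histone methyltransferase Setdb1. In embryonic stem cells this machinery silences retroviral elements and guards imprinted genes. KRAB zinc finger genes arose by repeated local duplication and often lie side by side. The numbered Zfp genes mix such KRAB proteins with BTB, SCAN and other zinc finger proteins, and with a few that bind RNA or ribosomes rather than DNA.

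Levels are given in RPKM as the authors deposited them, a read count divided by gene model length and library size. Replicate 1 rests on about 2991184 reads and replicate 2 on 3050685, worked out from the steps between low values, and at these depths 3 reads in a model of 2 kb equal 0.501 and 0.492 RPKM. At 10 RPKM such a model holds 59.8 and 61 reads, a counting error of 12.9% and 12.8%. Reads quoted below for single genes are the fewest that fit both values, and the true counts may be a multiple of them. All 9 embryonic stem cell markers reached 1 RPKM, among them Pou5f1 at 591 and 577 RPKM and Nanog at 108 and 103 RPKM. Of 9 fibroblast and feeder markers 3 reached 1 RPKM, with a summed level of 6.26 RPKM in replicate 1 and 11.4 in replicate 2, while Col1a2, S100a4 and Lum were listed at 0. Reaching 1 RPKM were also 1 of 4 neuronal, 2 of 4 trophoblast and 1 of 4 endoderm markers, of which Krt18 was the highest at 61.3 and 61.1 RPKM. The part of other cell types in the Zfp values was not tested, and in such bulk samples fewer cells with a transcript cannot be told apart from less of it per cell.

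Most numbered Zfp genes were transcribed at a measurable but modest level. Detection, taken here as a mean of at least 1 RPKM, held for 133 of the 167 genes (79.6%), against 46.4% of all genes listed. As many as 66 of them averaged at least 10 RPKM (39.5%), against 29.4% of all genes. At 100 RPKM or more the order turned, with 2 members (1.2%) and 4% of all genes. Only 7 members (4.19%) were listed at 0 in both replicates, against 38.2% of all genes. Genes that every cell uses, such as Rps6, also stand at 0 in this table, and no gene is called silent here from a value of 0.

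**Figure D1:**
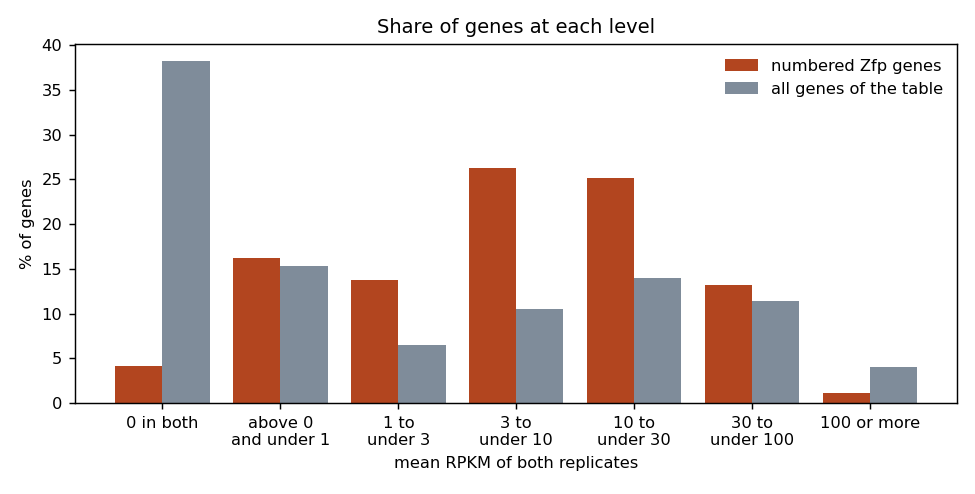
Percentage of the 167 numbered Zfp genes (orange) and of all 23282 genes (grey) in each class of mean RPKM over both replicates. The numbered Zfp genes are most frequent from 3 to under 10 RPKM (26.3%) and from 10 to under 30 RPKM (25.1%), whereas 38.2% of all genes are listed at 0.

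The median numbered Zfp gene had 6.85 RPKM in replicate 1 and 6.89 RPKM in replicate 2 (6.87 ± 0.0293 RPKM, SD, n = 2), against 0.536 ± 0.0284 RPKM for the median of all genes. Restricted to detected genes the order was the other way round. The 133 detected members had a median of 9.43 ± 0.101 RPKM with quartiles at 4.78 and 23, against 16.7 ± 0.151 RPKM for all 10814 detected genes with quartiles at 5.79 and 40.9. The numbered Zfp genes were therefore detected more often than genes in general but, once detected, stood lower. Summed over members, 2233 RPKM in replicate 1 and 2243 RPKM in replicate 2 made up 0.508% and 0.516% of all RPKM, while the members are 0.717% of the genes. The 12 highest members took 32.8% and 33.7% of that sum.

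Zinc finger genes under other names varied widely in how often they were detected. Among 54 further symbols that begin with Zfp, such as those with fewer digits or a letter, 33 were detected (61.1%) and the median was 1.82 ± 0.0143 RPKM. Of 83 genes that carry only a LOC or RGD identifier and are described as a zinc finger protein, 29 were detected (34.9%), with a median of 0.43 ± 0.0575 RPKM. The named families were detected more often than those. Zbtb genes, which join a BTB domain to zinc fingers, were detected in 31 of 36 cases with a median of 7.85 ± 0.893 RPKM. All 10 Zscan and Zkscan genes, which carry a SCAN domain, were detected, at a median of 3.75 ± 0.0624 RPKM, and 13 of 16 Klf genes were, at 8.44 ± 0.167 RPKM. How well a gene is annotated went along with its detection. Of the 126 members whose row cites a RefSeq record (BestRefseq) as evidence, 105 were detected (83.3%) and 1 was listed at 0, while of the 41 with a model predicted by Gnomon 28 were detected (68.3%) and 6 were listed at 0. The same shares over all genes were 55.3% detected with a RefSeq record and 29.8% with a predicted model.

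**Figure D2:**
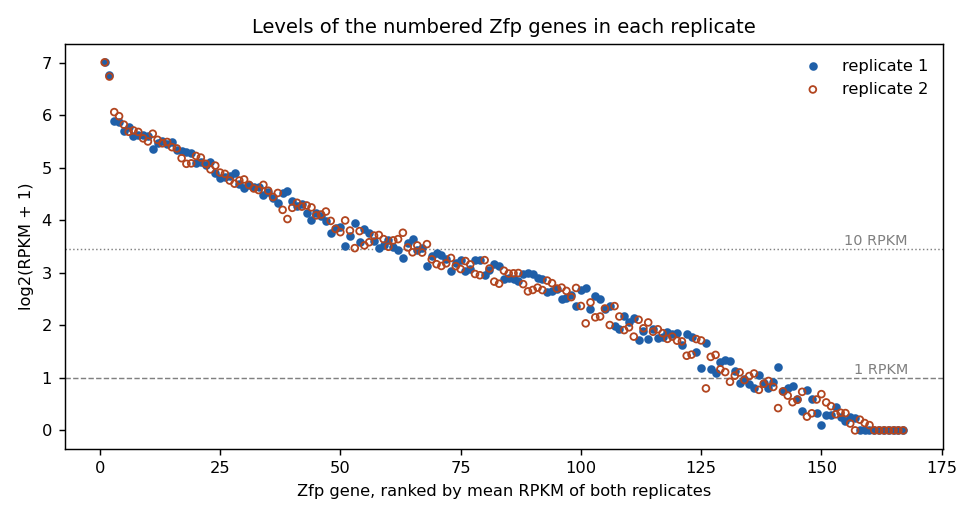
log2(RPKM + 1) of each numbered Zfp gene in replicate 1 (filled blue) and replicate 2 (open orange), ranked by the mean of both, with lines at 1 and 10 RPKM. Zfp207 and Zfp217 stand alone above 100 RPKM, and 133 of the 167 genes reach a mean of 1 RPKM.

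Zfp207 and Zfp217 were the highest members and stood apart from the rest. Zfp207 (also called BuGZ, Entrez gene 303763, rn5 chr10:67418703-67430465), a partner of the checkpoint protein Bub3 on the mitotic spindle, had 128 RPKM in both replicates, from 1314 and 1339 reads. Zfp217 (Entrez gene 311764, rn5 chr3:173096854-173107574), whose human counterpart works in co-repressor complexes and is amplified in breast cancer, had 108 and 106 RPKM, from 1085 and 1087 reads. The next gene, Zfp296, had 58.7 and 65.9 RPKM, so a clear gap separates the leading pair from the others. Zfp296 is a mouse pluripotency factor that binds Klf4. It was followed by Zfp428 with 57.7 and 62.4 RPKM and by Zfp414 with 50.8 and 55.7 RPKM, both without a role given here.

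The promoter windows of Zfp207 and Zfp428 are shown because each holds a motif that was searched in all promoters. The windows run from 250 bases before to 50 bases after the RefSeq start of the gene, on the GRCr8 assembly rather than the rn5 build of the expression table, and read 5′ to 3′ on the strand of the gene. Capitals mark the YY1 motif AAGATGGCG in Zfp207 and the NRF1 motif GCATGCGC in Zfp428.
Zfp207 (GRCr8 chr10:65883380-65883679, plus strand): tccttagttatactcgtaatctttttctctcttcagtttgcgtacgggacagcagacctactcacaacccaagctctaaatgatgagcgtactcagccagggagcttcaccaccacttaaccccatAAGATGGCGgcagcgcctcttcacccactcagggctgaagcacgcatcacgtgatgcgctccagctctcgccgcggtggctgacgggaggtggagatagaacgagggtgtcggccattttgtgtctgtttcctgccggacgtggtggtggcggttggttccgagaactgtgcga
Zfp428 (GRCr8 chr1:89227192-89227491, plus strand): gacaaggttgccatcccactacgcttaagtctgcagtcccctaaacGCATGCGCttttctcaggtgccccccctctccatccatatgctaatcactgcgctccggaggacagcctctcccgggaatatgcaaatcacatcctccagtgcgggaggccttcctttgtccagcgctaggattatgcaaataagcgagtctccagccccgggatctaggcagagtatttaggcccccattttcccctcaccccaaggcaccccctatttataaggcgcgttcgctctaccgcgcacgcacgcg

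The rest of the 12 highest members held proteins of quite different kinds. Zfp259, now named Zpr1 and known for binding the survival motor neuron complex and a translation elongation factor, had 53.6 and 50.6 RPKM. Zfp278, now Patz1, a BTB factor that helps keep mouse embryonic stem cells undifferentiated, had 48 and 51.5 RPKM. Zfp496, which in the mouse binds the histone methyltransferase Nsd1, had 48.7 and 50.5 RPKM. Zfp278 overlapped both of the others in level. Zfp277, a mouse partner of the Polycomb protein Bmi1, had 48.5 and 46.3 RPKM. Zfp598 had 47.7 and 44.4 RPKM, and it is not a DNA-binding regulator but the ubiquitin ligase that marks collided ribosomes. Zfp281, which in mouse embryonic stem cells recruits the NuRD complex to repress Nanog, had 39.9 and 49.3 RPKM (44.6 ± 6.64, SD, n = 2), the widest spread of the 12. Zfp710 had 43.5 and 45.4 RPKM, and its role is not described here. From Zfp414 to Zfp710 the means lay between 53.2 and 44.5 RPKM, and most neighbours in that order did not differ beyond their SDs.

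Members with known roles were looked at as a list of 34 names, of which 29 have a row. Of these 27 reached 1 RPKM and 21 reached 10 RPKM. The shares were 79.6% and 39.5% over all members, and 46.4% and 29.4% over all genes. The names Zfp322, Zfp326, Zfp568, Zfp687 and Zfp750 were not analysed here. The list was drawn up from textbook roles, with earlier results of these data known, and leans towards well-studied genes.

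Zfp462, which in mouse embryonic stem cells limits lineage genes, had 23.4 and 26.5 RPKM. Zfp706, which in the same cells holds back self-renewal, had 38.8 and 35.4 RPKM. Zfp410, known in human and mouse cells for activating Chd4 as nearly its sole target, had 33.6 and 30.4 RPKM, and Chd4 itself had 209 and 213 RPKM. Zfp445, a KRAB protein that protects imprinted regions in mouse and human, had 24 and 22.9 RPKM. All 4 were thus detected at more than 20 RPKM in each replicate.

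Zfp638, a nucleic acid binding protein that brings silencing factors to unintegrated retroviral DNA, had 44.3 and 41.1 RPKM. Zfp532 had 24.9 and 26.1 RPKM and Zfp592 had 21.5 and 24.6 RPKM, a pair of related proteins that bind the chromatin reader Zmynd8 in human cells. Zfp143, an activator bound at many promoters, had 22.4 and 22.7 RPKM. Zfp384, a factor rearranged in human leukaemia, had 27.4 and 28.6 RPKM. Zfp335, linked to histone methylation and to human microcephaly, was lower at 11.1 and 12.9 RPKM, and Zfp148, which binds GC-rich promoter sites, lower still at 6.17 and 6.99 RPKM. All 7 of these chromatin and promoter factors passed 1 RPKM.

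Several members act in protein modification or ribosome assembly. Zfp451, a SUMO ligase, had 33.1 and 36.5 RPKM. Zfp622, a maturation factor of the large ribosomal subunit, had 27.9 and 26.1 RPKM. Zfp593, also tied to ribosome assembly, had 13.6 and 12.7 RPKM. These members had means between the quartiles of all detected genes, 5.79 and 40.9 RPKM. Zfp451 and Zfp622 stood above the upper quartile of detected members, 23 RPKM. Zfp746, also called PARIS, a substrate of the ubiquitin ligase parkin, had 16.6 and 16.1 RPKM, and Zfp110, which binds the p75 neurotrophin receptor, had 10.2 and 11.3 RPKM.

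The promoter window of Zfp451 is shown because it holds the YY1 and ETS motifs with shared bases. Both lie on the opposite strand, so the printed strand of the gene shows their reverse complements. The YY1 motif appears there as CGCCATCTT. The ETS motif appears as CTTCCGG, and the capitals mark the run that joins them.
Zfp451 (GRCr8 chr9:43536557-43536856, minus strand): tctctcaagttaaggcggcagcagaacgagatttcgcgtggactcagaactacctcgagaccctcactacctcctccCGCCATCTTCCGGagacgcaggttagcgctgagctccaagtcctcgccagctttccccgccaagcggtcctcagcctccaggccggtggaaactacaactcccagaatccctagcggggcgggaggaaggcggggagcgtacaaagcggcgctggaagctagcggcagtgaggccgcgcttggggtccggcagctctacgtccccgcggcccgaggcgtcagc

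The remaining members of the list not yet described had means under 10 RPKM. Zfp238, now Zbtb18, a repressor of the developing cortex, was the highest of them at 8.95 and 8.57 RPKM. Zfp423, a factor of fat cell precursors and cerebellum, had 2.82 and 3.5 RPKM, and its relative Zfp521 had 0.743 and 0.583 RPKM, from 5 and 4 reads. Zfp503, a factor of the developing striatum, had 1.19 and 1.06 RPKM, while its relative Zfp703 was listed at 0 in replicate 1 and had 0.102 RPKM in replicate 2. In both pairs of relatives the levels did not overlap, and the lower of each stayed under 1 RPKM. Zfp541, known from meiosis in the mouse testis, had 2.32 and 3.31 RPKM, and Zfp597, whose human counterpart is imprinted, had 1.27 and 2.28 RPKM.

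The 7 members listed at 0 in both replicates were Zfp334, Zfp474, Zfp488, Zfp494, Zfp536, Zfp697 and Zfp939, and they are named because of those values. Zfp536 and Zfp488 are known from neurons and from oligodendrocytes. The Entrez identifier of Zfp334 now belongs to Ocstamp, an osteoclast fusion gene, and Zfp939 has no current RefSeq entry. Another 4 members had a value in 1 replicate alone, named for the same reason. Zfp703 is given above, Zfp352, a gene of the early mouse embryo, had 0.181 RPKM in replicate 1, and in replicate 2 Zfp711 had 0.152 RPKM and Zfp347 had 0.0721 RPKM. Just above 1 RPKM stood Zfp606 at a mean of 1.2, Zfp503 at 1.12 and Zfp575 at 1.02 RPKM. Just below it stood Zfp365 at 0.954, Zfp647 at 0.95 and Zfp426 at 0.934 RPKM, and the side of the limit differed between replicates for Zfp606, Zfp575, Zfp647 and Zfp426.

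Co-repressor and chromatin genes linked to KRAB zinc finger proteins were all detected, at widely differing levels. All 20 genes of a chosen list reached 1 RPKM, against 46.4% of all genes, and 18 reached 10 RPKM, against 29.4%. Trim28 had 919 and 956 RPKM, above every numbered Zfp gene. The DNA methyltransferase gene Dnmt3b had 455 and 451 RPKM and Uhrf1, which guides maintenance methylation, had 382 and 392 RPKM. Setdb1 had 63 and 63.7 RPKM, and the heterochromatin protein genes Cbx1, Cbx5 and Cbx3 had means of 108, 66.6 and 5.11 RPKM. The lowest of the list was Chd3 at 3.9 and 5.03 RPKM.

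Replicates differed little over the numbered Zfp genes, as they did over all genes, and their spread narrowed as the level rose. None of the 133 detected members differed by more than 2-fold in RPKM + 1, against 78 of all 10814 detected genes (0.721%). With 0.1 added in place of 1, 1 member did. The SD of the log2 ratio of replicate 2 over replicate 1 was 0.32 for members from 1 to under 3 RPKM and 0.13 from 30 to under 100 RPKM, against 0.46 and 0.14 over all genes in those ranges. Across detected members the replicates correlated with Pearson r = 0.985 and Spearman rho = 0.984 on log2(RPKM + 1), and across all detected genes with 0.989 and 0.991, where genes are not independent replicates. In replicate 2, 69 of the 133 members were the higher (51.9%), against 45.9% of all detected genes.

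Among detected members the 5 furthest apart on log2(RPKM + 1) were mostly low. Zfp579 had 2.18 RPKM in replicate 1 and 0.741 in replicate 2, and Zfp772, now Zfp954, had 5.59 and 3.11 RPKM. Zfp692 had 22.7 and 15.3 RPKM from 106 and 73 reads, Zfp597 rested on 6 and 11 reads, and Zfp704 had 10.4 and 15 RPKM from 19 and 28 reads. Only Zfp692 and Zfp704 of these 5 exceeded 10 RPKM. Whole reads could be worked out for 122 of the 156 members above 0 in both replicates (78.2%). Counted as the fewest reads that fit, their median was 47 in each library, and 18 members had fewer than 10 in each.

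Chromosome 1 held the largest share of members. It carried 43 of the 167 (25.7%), against 14.3% of all genes, a ratio of 1.8. Chromosomes 18 and 17, with 8 members each (4.79%), held 2.3% and 2.74% of all genes. Chromosome 3 had 5 members (2.99%) against 8.28% of all genes, and the X chromosome had only Zfp711 (0.599%) against 3.76%. The placement depends on the build for a few genes. On GRCr8 the promoter windows of Zfp185 and Zfp275, on chromosome 1 in rn5, lie on the X chromosome, and they are named after this was seen. They are the only 2 of the 140 members with a window whose chromosome differs, against 1.27% of all genes of the table with a window. Detected were 35 of the 43 members on chromosome 1 (81.4%) and 98 of the 124 elsewhere (79%), against 41% and 47.4% of all genes. Their medians were 5.12 ± 0.268 RPKM on chromosome 1 and 7.51 ± 0.0803 RPKM elsewhere. The deposited values of chromosome 1 also have a different numerical structure. Of 41 chromosome 1 members above 0 in both replicates 18 resolved to whole reads (43.9%), against 104 of 115 members elsewhere (90.4%), and the part of this in the levels was not tested.

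**Figure D3:**
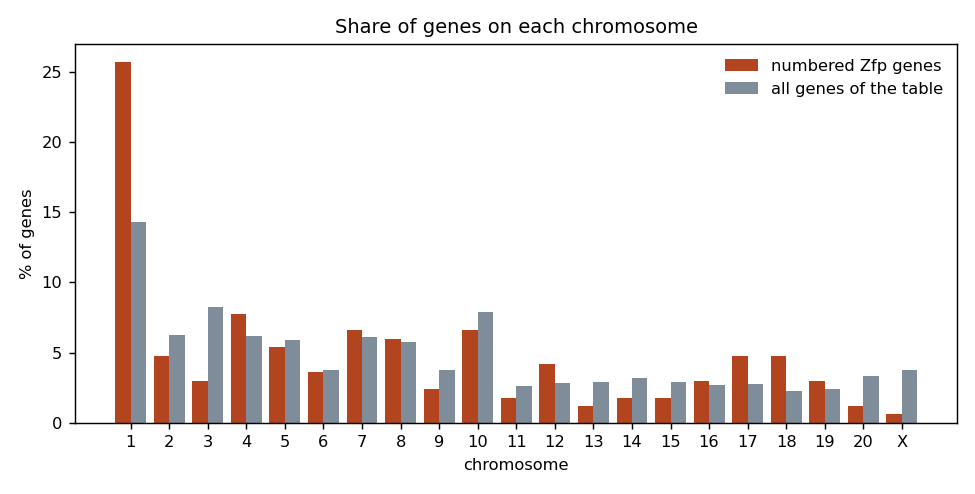
Percentage of the 167 numbered Zfp genes (orange) and of all 23282 genes (grey) on each chromosome of rn5. Chromosome 1 holds 25.7% of the numbered Zfp genes and 14.3% of all genes, and chromosome X holds 0.599% and 3.76%.

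Numbered Zfp genes had a member nearby more often than other genes did, though most had none within 250 kb. Another member within 250 kb was found for 53 of the 167 (31.7%), while 1388 of the 23115 other genes had a member within that distance (6.00%). Zinc finger genes under other names were not counted as neighbours, so a member without a neighbour here may still lie near such a gene. With a cluster taken as 3 or more members with gaps of at most 250 kb, there were 10 clusters that held 35 members (21%). Chromosome 1 carried 5 of them with 17 members, chromosome 4 carried 2, and chromosomes 7, 8 and 17 carried 1 each. The largest held 5 members and the others 3 or 4. Members outside clusters include some with another member within 250 kb, such as Zfp455 and Zfp458 on chromosome 2. In 5 clusters every member was detected. Over all members the share detected was 79.6%, and how many clusters of 3 to 5 members that share alone would give was not worked out.

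Clusters did not have a uniform level. The chromosome 4 cluster (rn5 chr4:142166949-142416151) held, in order, Zfp786, Zfp398, Zfp282, Zfp777 and Zfp746. Zfp786 had 2.42 and 2.61 RPKM, Zfp398 had 0.193 and 0.0948 RPKM from 2 and 1 reads, and Zfp282 had 5.18 and 6.23 RPKM. Zfp777 had 15 and 18 RPKM, close to its neighbour Zfp746 at 16.6 and 16.1 RPKM. A gene near the counting floor thus lay 8524 bases from a detected paralog, Zfp282, and 8824 bases from Zfp786.

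The promoter windows of Zfp777 and Zfp398, the highest and lowest of that cluster, are shown to set them side by side. Both are CpG-rich by the measure given further on, with a GC content of 73.3% in Zfp777 and 61.3% in Zfp398. Their observed to expected CpG ratios were 0.992 and 0.607, so Zfp398 only just passed the minimum of 0.6. Capitals mark the ETS motif CCGGAAG, which is in the window of the lower gene, Zfp398, and not in that of Zfp777.
Zfp777 (GRCr8 chr4:78373509-78373808, minus strand): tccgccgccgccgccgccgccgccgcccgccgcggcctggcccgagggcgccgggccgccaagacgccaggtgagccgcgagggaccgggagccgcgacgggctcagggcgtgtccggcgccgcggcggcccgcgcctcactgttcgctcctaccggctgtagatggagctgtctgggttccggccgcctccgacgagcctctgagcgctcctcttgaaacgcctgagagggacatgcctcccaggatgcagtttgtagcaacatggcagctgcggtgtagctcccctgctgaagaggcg
Zfp398 (GRCr8 chr4:78180376-78180675, plus strand): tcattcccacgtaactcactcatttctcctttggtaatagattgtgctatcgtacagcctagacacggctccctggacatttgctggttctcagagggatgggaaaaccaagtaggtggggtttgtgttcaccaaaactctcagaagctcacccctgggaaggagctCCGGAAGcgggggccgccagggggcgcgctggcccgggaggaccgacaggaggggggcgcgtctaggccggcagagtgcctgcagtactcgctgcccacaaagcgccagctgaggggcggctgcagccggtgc

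The second cluster of chromosome 1 (rn5 chr1:72637802-72840114) spanned the widest range. Zfp444 had 44.6 and 43.3 RPKM, Zfp787 had 6.85 and 5.9 RPKM, Zfp667 had 0.889 and 0.775 RPKM and Zfp583 had 0.131 and 0.257 RPKM. Zfp444 was thus the only member of its cluster above 10 RPKM. On chromosome 17 (rn5 chr17:58261028-58390621) Zfp187, now Zscan26, had 18.4 and 19.2 RPKM, whereas its listed paralog Zfp307, now Zkscan4, had 0.257 and 0.504 RPKM from 1 and 2 reads. Zfp192, now Zkscan8, lay beside them at 3.19 and 2.9 RPKM. All 3 of these carry a SCAN domain by their current names, but their levels did not overlap.

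On chromosome 8 (rn5 chr8:131040161-131164784) Zfp445 at 24 and 22.9 RPKM and Zfp105 at 14.9 and 17 RPKM flanked Zfp167, now Zkscan7, at 3.94 and 4 RPKM. No other listed gene lies within this cluster. The chromosome 7 cluster (rn5 chr7:15224533-15601988) was low throughout, from Zfp472 at 6.49 and 5.59 RPKM to Zfp563 at 0.508 and 0.498 RPKM. The second cluster of chromosome 4 (rn5 chr4:142732564-142922229) ran from Zfp775 at 12.5 and 11 RPKM to Zfp467 at 2.95 and 4.16 RPKM.

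The other 4 clusters of chromosome 1 had a narrower range and no member much above 10 RPKM. Zfp110 and Zfp324 marked the ends of the range in the cluster at rn5 chr1:66419814-66611630, at means of 10.7 and 1.36 RPKM. In the compact cluster at rn5 chr1:76133748-76197609 these were Zfp580 and Zfp579 at 7.06 and 1.46 RPKM. Zfp180 and Zfp111 bounded the cluster at rn5 chr1:82186002-82311607, at 10.5 and 0.824 RPKM, and Zfp260 and Zfp382 that at rn5 chr1:89569289-89763846, at 5.14 and 2.75 RPKM. Zfp111 was uneven between replicates, with 1.31 RPKM in replicate 1 and 0.342 in replicate 2.

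**Figure D4:**
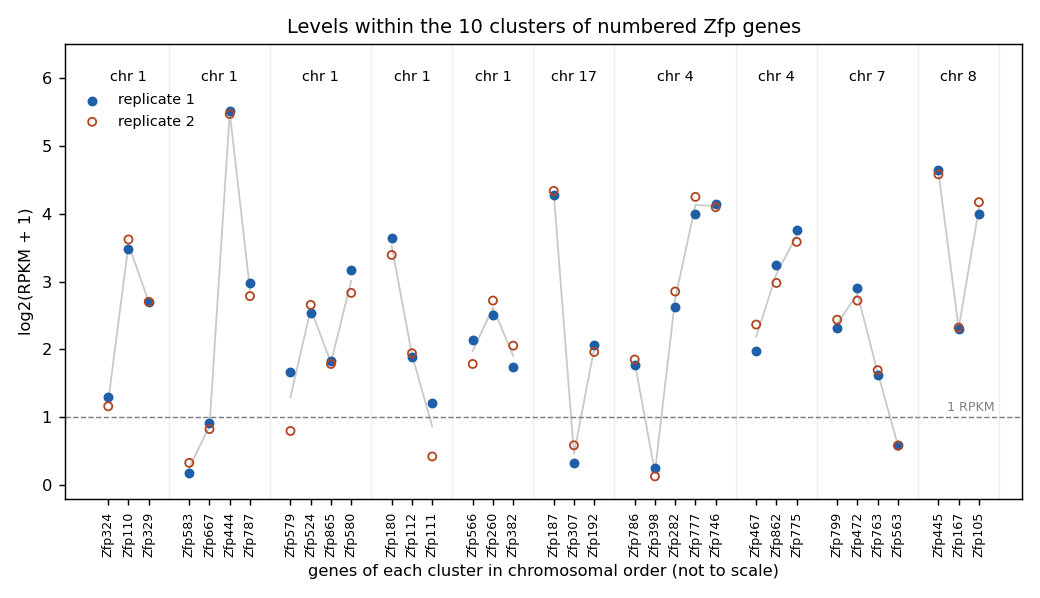
log2(RPKM + 1) of the members of the 10 clusters of numbered Zfp genes in chromosomal order, in replicate 1 (filled blue) and replicate 2 (open orange). A grey line joins the means within each cluster. In 5 of the 10 clusters every gene reaches a mean of 1 RPKM, as 79.6% of all numbered Zfp genes do.

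Neighbours within clusters differed about as much as clustered members did in general. Over the 25 adjacent pairs the median absolute difference was 1.21 on log2(RPKM + 1), against 1.34 over all 595 pairs of clustered members and 1.78 over all 13861 pairs of members. A difference above 2 was found in 6 of the 25 (24%), against 29.1% of the pairs of clustered members and 44.4% of all pairs. Clustered members have a narrower range of levels than the others, with quartiles at 2.33 and 9.08 RPKM against 1.44 and 21.2 RPKM. The table lists 9 of the 25 pairs as paralogs, and 12 have no other gene between them. Clustered members were detected in 29 of 35 cases (82.9%) against 104 of 132 others (78.8%), but a smaller share reached 10 RPKM, with 9 (25.7%) against 57 (43.2%). Their median was 4.21 ± 0.298 RPKM, against 7.83 ± 0.0496 RPKM for members outside clusters. On log2(RPKM + 1) the medians differed by -0.81 in replicate 1 and -0.71 in replicate 2 (-0.76 ± 0.07, SD, n = 2). With chromosome 1 left out the difference was -0.63, between 18 clustered members at a median of 4.8 RPKM and 106 others at 7.93 RPKM.

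Among members, paralogs listed in the table went along with a lower level but with nearly the same share detected. The 27 members with 4 or more listed paralogs had a median of 4.7 ± 0.796 RPKM, the 71 with 1 to 3 had 5.48 ± 0.148 RPKM and the 69 with none had 8.76 ± 0.271 RPKM. Detected were 77.8%, 78.9% and 81.2% of them, against 36.3%, 64.6% and 44.6% of all genes in the same classes. Over all genes the medians of these classes were 0.0946, 5.69 and 0.303 RPKM, so there the class with 1 to 3 paralogs was the highest. How reads that map to several copies were handled is not given in the sources used here, so levels of members with close copies are uncertain. Other genes of the table, 13 in all, are described as like 9 of the members, 6 of which were detected. The loci of 7 members overlap another listed gene (Zfp142, Zfp219, Zfp276, Zfp438, Zfp474, Zfp697 and Zfp748, named after their values were seen), and whether counting used strand is not given in the sources used here.

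More than 50% of the promoter windows of numbered Zfp genes were CpG-rich, both above and below 1 RPKM. A RefSeq window was found for 140 of the 167 members, and the most upstream was used where a gene had several. Taking a GC content of at least 50% and an observed to expected CpG ratio of at least 0.6 as CpG-rich, 90 of the 140 windows were so (64.3%), against 49.1% of the 16256 genes of the table with a window. Among detected members the share was 75 of 112 (67%), against 73.8% of all detected genes. Among members below 1 RPKM it was 15 of 28 (53.6%), against 19.7% of all genes below 1 RPKM. Members and other genes thus differed mostly among those below 1 RPKM, a description without a test.

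CpG-rich members were detected in 75 of 90 cases (83.3%) with a median of 8.85 ± 0.27 RPKM, and members with other windows in 37 of 50 (74%) with a median of 5.17 ± 0.164 RPKM. Over all genes the same classes were detected in 81.7% and 27.9% of cases. Members without a CpG-rich window were therefore detected more often than other genes of that class. Zfp217, the second highest member, was among them, with a GC content of 53% and a CpG ratio of 0.433. Whether a RefSeq start is the start used in these cells was not tested, so a window may miss the promoter.

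Short motifs of factors that bind CpG-rich promoters were searched on both strands of the same windows. The ETS motif CCGGAAG, whose letters can share bases with the YY1 motif as in Zfp451, was in 37 of the 140 member windows (26.4%), against 12.3% of all genes of the table. Among detected members its share was 25.9%, against 19.8% of all detected genes. Among members below 1 RPKM it was in 8 of 28 windows (28.6%), against 3.34% of all genes below 1 RPKM. The share was thus no lower in members below 1 RPKM than in those above it, though it rests on few windows. The NRF1 motif GCATGCGC was in 13 windows (9.29%), against 3.63% of all genes of the table, and the YY1 motif AAGATGGCG in 7 (5%), against 2.49%. Among detected members the shares were 9.82% for NRF1 and 5.36% for YY1, against 5.8% and 4.33% of all detected genes. Below 1 RPKM they were in 2 and 1 of the 28 member windows (7.14% and 3.57%), against 1.05% and 0.296% of all genes below 1 RPKM. Over all 27457 genes with a window in RefSeq, in the table or not, the shares were 9.21% for ETS, 2.67% for NRF1 and 1.93% for YY1. A match is a string of letters and does not show that a factor binds there.

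**Figure D5:**
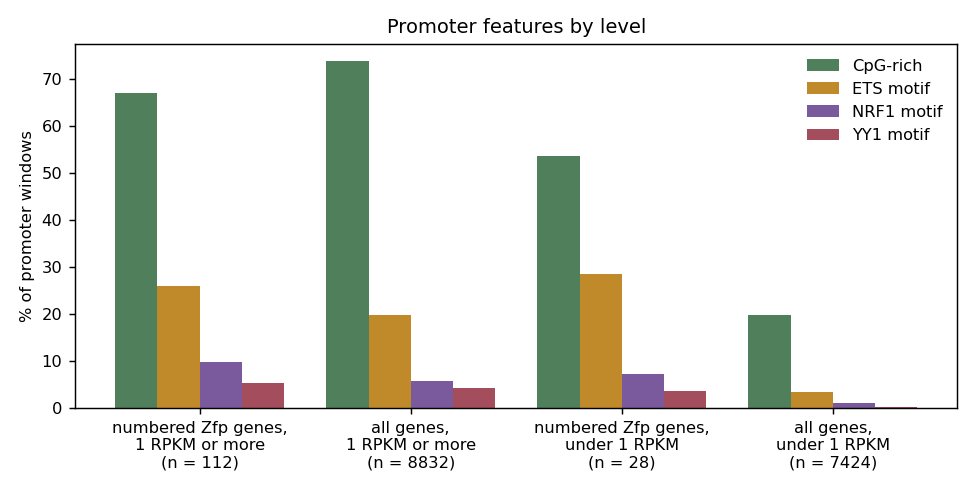
Percentage of promoter windows that are CpG-rich or hold the ETS, NRF1 or YY1 motif, for numbered Zfp genes and all genes at or above 1 RPKM and below it. Below 1 RPKM the numbered Zfp genes keep a CpG-rich share of 53.6% and an ETS share of 28.6%, against 19.7% and 3.34% of all genes.

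Names of the set have moved since the table was made. By Entrez identifier 165 of the 167 members have an entry in the current RefSeq gene table of the GRCr8 assembly, 146 under the same symbol and 19 under another. Of the 19, 5 are now Zbtb genes and 5 are Zscan or Zkscan genes, and some left the zinc finger factors altogether, such as Zfp364, now the ubiquitin ligase gene Rnf115, at 38.4 and 32.8 RPKM, named after its value was seen. Without the 16 members that no longer carry a Zfp symbol, 119 of 151 were detected and the median was 6.36 RPKM.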

How the data were processed

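Total RNA of 2 wild-type rat embryonic stem cell libraries was extracted with Trizol and cleaned on columns, made into TruSeq libraries and sequenced as paired reads of 50 bp, per the labels. Both libraries share 1 table, deposited by the authors, of RPKM per gene. TopHat 1.4.0 and CASAVA 1.8 and the builds rn5 and Rnor_5.0 are named, per the submitters' processing notes. The values are labelled as those of RefSeq genes on rn5. Not given in the sources used here are the counting tool, its use of strand and the release of the annotation.

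Rows were joined by Entrez identifier (23716 rows, 23282 genes). Each level is the mean of both replicates with their SD. Differences were taken on log2(RPKM + 1), a scale that shrinks differences between low genes. Members are all symbols of Zfp and 3 digits. Read totals were recovered from rows with a locus under 6000 bp. Reads per gene came from the shortest model length that gave whole numbers for both replicates (relative tolerance 3e-07). Lengths of 60 to 20000 bp, and no longer than the locus, were searched. Where the true model is longer, it holds more reads. The procedures were checked on simulated data. There the search for reads stopped at the true model length, and reads were accepted up to a common factor. The check therefore does not cover searches up to a longer locus, as made here. Floors cover counting error only.

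Promoter windows of 300 bp (33469 windows of 27457 genes) and current symbols came from RefSeq tables of GRCr8, matched by gene identifier. Positions of the expression table (rn5) gave chromosomes, gaps, clusters and overlaps, and no coordinates of the RefSeq gene table were used. A grouping of members into KRAB, SCAN and other proteins was planned and was not made, since it needs protein sequences that were not used here. Genes named are the 12 highest members, the highest and lowest of each cluster, the 5 detected members furthest apart between replicates, 3 on each side of 1 RPKM and the list of known roles, plus further members of the clusters described and others where the text says so. The members and the lists were chosen with earlier results of these data known.

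Alternatives were detection at 0.3 or 3 RPKM, each replicate alone, the highest row per gene, rescaled libraries, symbols with a final letter, a minimum of 0.1 or 10 RPKM or none, a pseudocount of 0.1, median centring and cluster gaps of 100 or 500 kb. Others were added after seeing the data: leaving out renamed members, leaving out chromosome 1, and taking any window of a gene. Software was matplotlib 3.10.9, scipy 1.17.1, pandas 2.3.3 and numpy 2.4.6 under Python 3.11.15.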

Additional observations from a re-analysis of the deposited data

How the results depend on the processing

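Of 32 alternative values 22 were classed as the same as those reported, 10 as moved and none as reversed. The classes are broad, since 110 and 152 detected members both count as the same as 133. Only the difference of clustered from other members has a sign that could turn. Detected members were 110 at a minimum of 3 RPKM, 152 at 0.3 RPKM, 98 of 124 with chromosome 1 left out and 147 with each library rescaled to a sum of 1000000. That rescaling put the median at 15.7 RPKM, and a minimum of 0.1 RPKM put it at 7.51. Allowing a final letter in the symbol gave 183 genes, 11 of them listed at 0 in both replicates. With a pseudocount of 0.1, 1 member was over 2-fold apart between replicates. A gap of at most 100 kb left 23 members in clusters, and a gap of at most 500 kb gave 44. The difference of clustered from other members was -0.53 at 500 kb and -0.88 with a pseudocount of 0.1. Chosen after seeing the data were leaving out chromosome 1, which gave a median of 7.51 RPKM and a difference of -0.63, and leaving out renamed members, which gave a median of 6.36 RPKM. Leaving out each replicate gave 133 to 134 detected members, medians of 6.85 to 6.89 RPKM and differences of -0.81 to -0.71. The causes were not tested. No paired analysis was possible because the series holds 1 group. Protein classes were not run, since no protein sequences were used. Read depth limits genes below 1 RPKM, and 18 members had under 10 reads in each library by the fewest reads that fit.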

Other observations

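The share of values that resolve to whole reads differed between chromosomes in the whole table. Of the rows above 0 in both replicates it was 36% on chromosome 1 (604 of 1678) and 40.8% on the X chromosome (179 of 439), against 86.3% on the other 19 chromosomes (9369 of 10853), where it ranged from 82.1% to 91.2%. In rows with a short locus, taking the locus as the gene model gave whole reads in 12.5% on chromosome 1, 15.5% on X and 19.1% elsewhere. Detected genes of chromosome 1 had a median of 19 RPKM and those of X had a median of 12.9 RPKM, inside the range of the other chromosomes. For this reason the report quotes the reads of a named gene only off chromosome 1, while its counts and median of reads over members include 18 members of chromosome 1. Of the genes that rn5 places on chromosome 1 and that have a promoter window, 70 of 2344 (2.99%) have it on another chromosome of GRCr8, 61 of them on X. The share was 38 of 594 (6.4%) for genes of X in rn5 and 0.743% for the other chromosomes.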
